A study of Mus musculus with 14 samples.

Results

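The oligoadenylate synthetase (Oas) family of interferon-induced genes was followed in tumours of B16-F10 mouse melanoma cells. It was taken as 7 genes chosen by name (Oas1a, Oas1b, Oas1g, Oas2, Oas3, Oasl1 and Oasl2), each represented by a probe set annotated to that gene alone and selected on its mean level over the arrays of its table, the highest being kept. Of these, 6 had such a probe set among the 22180 genes of the 12-array table and 6 among the 19938 genes of the 2-array table, with 5 in both. Oas1a was skipped in the 12-array table and Oas1g in the 2-array table, because the remaining probe set there is annotated to both genes. Each of these genes had 1 probe set of its own per table, so the mean level decided nothing. The family was itself picked with earlier results of these data in view, among them the change of Oas1b between Res 499 and control, so its values describe these tumours and are no independent support for that change. Adjusted p-values by limma come from a fit of every gene.

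The arrays measured total RNA from 14 tumours of B16-F10, a pigmented melanoma line of C57BL/6 mice. Res 499 (7 tumours) and Res 177 (2 tumours) are sublines labelled resistant, recovered from unirradiated tumours that had withstood radiation of the opposite flank combined with the CTLA4-blocking antibody 9H10, or had relapsed after it. The 5 control tumours came from sensitive B16-F10 cells. In the labels' scheme 1 flank received 20 Gy on day 8, and mice received the antibody on day 5, day 8 and day 11. No label states whether the profiled tumours had themselves been treated, or whether a subline is a single clone. The 12-array table held 7 Res 499 tumours, 1 Res 177 tumour (replicate 2) and 4 control tumours (replicates 2 to 5), and the 2-array table held Res 177 replicate 1 and control replicate 1. Levels are log2 expression values on the scale of their own table, and replicate numbers only name a tumour.

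Oas proteins with synthetase activity are template-independent nucleotidyltransferases. They bind double-stranded RNA and then join ATP into 2'-5'-linked oligoadenylates, known as 2-5A. The oligoadenylates activate the latent nuclease RNase L, which cuts viral and cellular RNA and so stops protein synthesis. The genes are transcribed after type I, II or III interferon, chiefly through the factor complex ISGF3, which binds the interferon-stimulated response element (ISRE). Mice carry several Oas1 copies, of which Oas1a and Oas1g encode active synthetases. Oas1b is the gene of the flavivirus resistance locus, and its allele in C57BL/6 and most laboratory strains holds a premature stop codon; RefSeq (GRCm38.p6) lists it as a transcribed pseudogene. Oas2 and Oas3 are built from repeated Oas units, and Oasl1 and Oasl2 carry ubiquitin-like domains at their ends. All 7 genes lie on chromosome 5, with Oas1, Oas2 and Oas3 genes in 1 cluster and Oasl1 and Oasl2 as a neighbouring pair apart from it.

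The promoters are shown because the family is known for its induction through the ISRE. RefSeq promoter windows (GRCm38.p6, 250 bases before to 50 after the gene start) were at hand for 5 of the 7 genes; Oas1b and Oas2 had no entry in the table. Each was searched on both strands for an ISRE-type motif, GAAA followed by any 2 bases and GAAA again, and for TTCNNNGAA, the form of the GAS element bound by STAT dimers. Capitals mark matches to the ISRE-type motif in the 250 bases before the start, read 5' to 3' on the strand of the gene.
Oas1g (chr5:120887614-120887863, minus strand): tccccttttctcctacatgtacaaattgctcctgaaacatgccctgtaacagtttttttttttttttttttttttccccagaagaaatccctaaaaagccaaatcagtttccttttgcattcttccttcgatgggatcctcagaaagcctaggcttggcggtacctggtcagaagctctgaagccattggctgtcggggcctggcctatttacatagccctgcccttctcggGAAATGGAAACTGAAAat
Oas1a (chr5:120907526-120907775, minus strand): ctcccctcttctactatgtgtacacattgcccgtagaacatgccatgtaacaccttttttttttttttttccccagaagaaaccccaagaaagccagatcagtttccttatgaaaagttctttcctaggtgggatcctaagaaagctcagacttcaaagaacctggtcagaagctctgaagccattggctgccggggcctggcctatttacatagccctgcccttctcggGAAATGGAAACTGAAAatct
Oas3 (chr5:120777660-120777909, minus strand): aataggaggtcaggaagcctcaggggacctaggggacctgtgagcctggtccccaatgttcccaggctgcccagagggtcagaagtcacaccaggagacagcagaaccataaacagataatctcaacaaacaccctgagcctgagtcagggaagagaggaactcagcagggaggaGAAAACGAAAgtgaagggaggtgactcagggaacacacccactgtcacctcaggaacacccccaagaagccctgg
Oasl2 (chr5:114896684-114896933, plus strand): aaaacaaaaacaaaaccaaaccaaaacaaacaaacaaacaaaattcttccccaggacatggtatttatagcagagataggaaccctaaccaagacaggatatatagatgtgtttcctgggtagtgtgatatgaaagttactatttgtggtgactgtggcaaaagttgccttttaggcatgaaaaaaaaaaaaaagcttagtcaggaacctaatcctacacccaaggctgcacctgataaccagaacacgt
Oas1g and Oas1a each held 2 matches that overlap in 1 run, starting at positions -18 and -12 from the gene start of Oas1g and at -20 and -14 from that of Oas1a. Oas3 held 1 match, at -75. The windows of Oasl2 and Oasl1 held none. In all, 3 of the 5 windows held the ISRE-type motif, against 3.44% of all 32851 windows of this length. TTCNNNGAA was found in 1 of the 5, that of Oas1a, against 8.30% of all windows. A match is a description of the letters in these windows, not a measured site.

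The arrays were alike in their bulk, with median levels from 5.70 to 5.80 and correlations between arrays from 0.977 to 0.993 in the 12-array table. All 7 melanocyte lineage markers were measured, and their mean lay within 0.22 of the control mean in every tumour. Tumours differed in leukocyte content, taken as the mean of Ptprc, Cd53, Laptm5, Lcp2 and Coro1a, from -0.38 to 1.70 relative to the control mean in Res 499 and from -0.16 to 0.28 in control. The Res 177 tumour of the same table stood at 0.99 for leukocyte content, and its 6 keratinocyte and hair follicle markers averaged 3.11 above the control mean. In bulk tumours, more or fewer cells of a type and more or less RNA per cell cannot be told apart.

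Oas1b was the member that rose in Res 499 tumours against control tumours after adjustment over every gene. It ran from 6.92 through a median of 7.19 to 7.38 in the 7 Res 499 tumours, and stood at 6.05, 6.28, 6.35 and 6.23 in control replicates 2 to 5. Every Res 499 tumour lay above every control, with a gap of 0.57 between the lowest of the first and the highest of the second. The change was 0.93 on the log2 scale (SE 0.10, 1.91-fold, limma adjusted p = 0.00445), from means of 7.16 ± 0.19 (SD, n = 7) in Res 499 and 6.23 ± 0.13 (SD, n = 4) in control. Of the 6 members measured, 1 thus rose, where 0.144% of the 16635 genes tested rose. Since RefSeq lists the gene as a transcribed pseudogene, the value is one of RNA.

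Oas1g, which encodes an active synthetase of the Oas1 group, had the highest point estimate of the 6 but a wider spread. It ran from 7.20 through a median of 7.90 to 8.66 in Res 499, against 6.79, 6.98, 6.58 and 6.75 in the controls. Here too every Res 499 tumour lay above every control, by a gap of 0.22. The difference of 1.19 (SE 0.26, 2.27-fold) had a limma adjusted p of 0.0770 and did not pass the threshold of 0.05. Non-overlapping groups with Res 499 on top were thus found for 2 of 6 members, and for 1.23% of all genes tested. Oas1g and Oas1a are close in sequence, and the value of Oas1g is uncertain as far as its probes also bind Oas1a.

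Oas2 and Oas3, the synthetases made of repeated units, overlapped between the groups. Oas2 ran from 6.37 through a median of 7.64 to 8.03 in Res 499, against 6.28, 5.57, 6.47 and 6.75 in the controls. In 5 of 7 Res 499 tumours it lay above every control, while replicates 6 and 7 lay within the control range. Its difference was 1.08 (SE 0.32, limma adjusted p = 0.176). Oas3 ran from 6.36 through a median of 6.83 to 7.03 in Res 499, against 6.28, 6.28, 6.48 and 6.63 in the controls. The same 5 tumours lay above every control, and the difference of 0.35 (SE 0.13, limma adjusted p = 0.259) was the lowest of the family. Of all genes tested, 9.38% had at least 5 Res 499 tumours above every control.

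The Oas-like genes differed from each other in how far they spread. Oasl1, which in mice is known to hold back the translation of Irf7, ran from 6.30 through a median of 6.96 to 7.26 in Res 499, against 6.32, 6.28, 6.31 and 6.47 in the controls. It lay above every control in 6 of 7 tumours, with replicate 7 inside the control range, and differed by 0.52 (SE 0.16, limma adjusted p = 0.201). Oasl2 ran from 6.46 through a median of 8.52 to 9.37 in Res 499, against 7.05, 6.58, 6.99 and 7.37 in the controls. Replicates 6 and 7, at 6.46 and 6.52, lay below every control and the other 5 above every control. Its difference of 1.08 equalled that of Oas2 to 2 decimals, but its SE was 0.53 (limma adjusted p = 0.412).

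**Figure D1:**
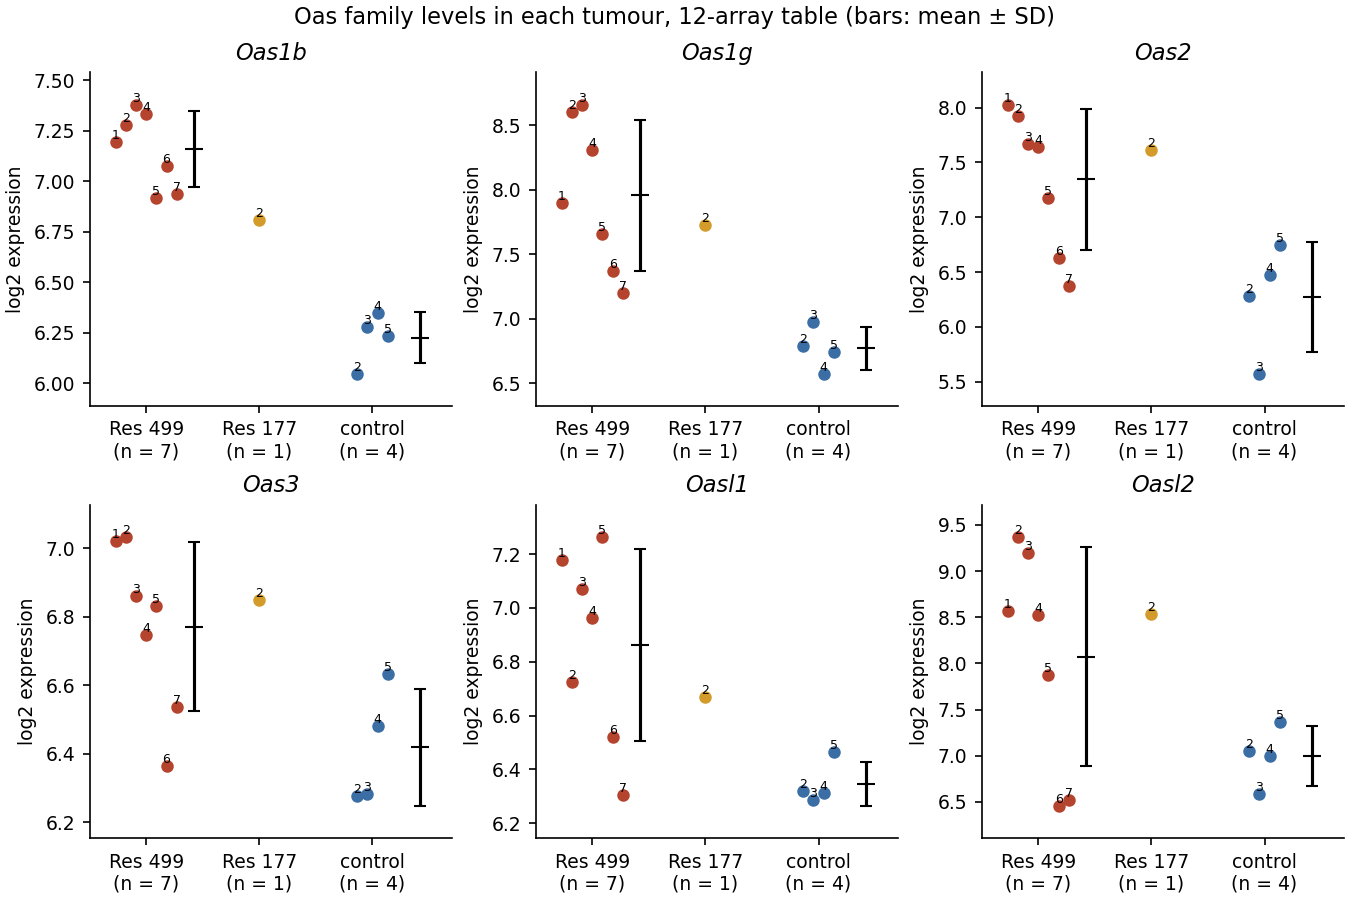
Log2 expression of the 6 members with a probe set of their own in the 12-array table, 1 point per tumour labelled with its replicate number, grouped as Res 499, Res 177 and control on the horizontal axis, with mean and SD beside groups of more than 1 tumour. Oas1b and Oas1g separate all 7 Res 499 tumours from the 4 controls, while Res 499 replicates 6 and 7 fall below every control for Oasl2.

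Over the family, all 6 members had positive differences in Res 499 with a median of 1.004, against a median of 0.01 over all genes tested, of which 51.7% were positive. An unadjusted p under 0.05 was found for 5 of 6 members with a higher level, and for 6.68% of all genes. The size of a difference did not decide which member passed. Oas1g, Oas2 and Oasl2 had larger differences than Oas1b, but their SDs within Res 499 were 0.58, 0.64 and 1.19, against 0.19 for Oas1b. Within control tumours the SDs were 0.16, 0.50, 0.32 and 0.13 in the same order. The SE of Oas1b exceeded that of 57.7% of genes tested and the SE of Oasl2 that of 99.6%, as the plot of change against its error shows.

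**Figure D2:**
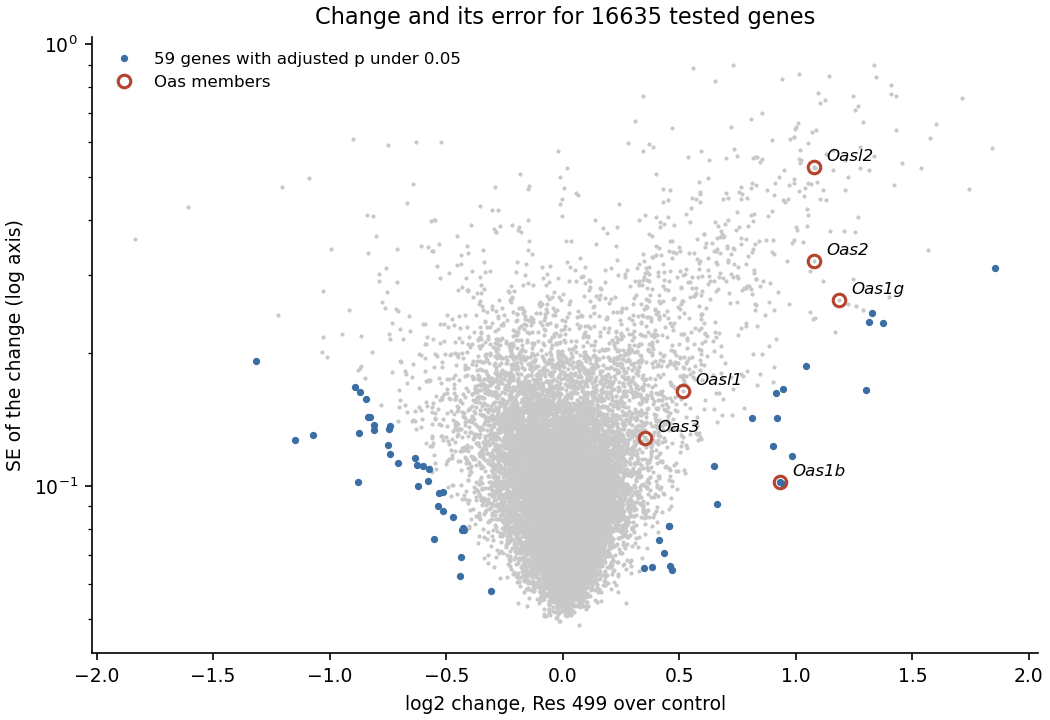
Log2 change of Res 499 over control (horizontal axis) against the SE of that change from limma (vertical log axis) for 16635 tested genes, with the 59 genes of adjusted p under 0.05 in blue and the 6 members circled. Oas1b has a change of 0.93 with an SE of 0.10, whereas Oasl2 has 1.08 with an SE of 0.53.

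Members were also set against each other by the per-tumour difference of each of 15 pairs, over 7 Res 499 and 4 control tumours. Oas1b was picked with its change in view, so these differences are a description. The difference of Oas1b exceeded that of Oas3 by 0.58, that of Oas1g exceeded it by 0.83 and that of Oas2 by 0.73. Oas1b and Oasl2 lay -0.14 apart and Oas2 and Oasl2 0.00 apart. None of the 15 passed a two-sided exact permutation test with adjustment over the pairs, and 4 had an unadjusted exact p under 0.05. With 330 arrangements, the smallest p this permutation test can give was 0.00606. A single pair at that floor has an adjusted p of 0.0909 and could not pass alone. The lack of a passing pair therefore does not show that members changed alike. Without Res 499 replicate 7, 3 pairs passed, namely Oas1b, Oas1g and Oas2, each over Oas3.

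The tumours took similar places for most members. Res 499 replicates 1 to 4 held the 4 highest levels of Oas1b, Oas1g, Oas2 and Oasl2 among Res 499 tumours, and replicates 6 and 7 the 2 lowest of each member except Oas1b. For Oas1b the lowest was replicate 5, at 6.92. Replicate 5 was instead the highest for Oasl1, at 7.26. Relative to the control mean, Oasl2 stood at 2.37 in replicate 2 and -0.54 in replicate 6, and Oas1b at 1.05 and 0.85 in the same tumours.

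Leukocyte and macrophage markers moved with several of these places but not in every tumour. Leukocyte content relative to the control mean was 1.34, 1.68, 1.70, 0.30, 1.26, 0.27 and -0.38 in Res 499 replicates 1 to 7. All 5 leukocyte markers had positive differences (median 0.66), 0 passed the test, and 3 were higher with an unadjusted limma p under 0.05. All 12 macrophage and monocyte markers had positive differences (median 0.92), none passed the test, and 5 were higher with such an unadjusted p. Over all genes tested, 51.7% were positive and 6.68% were higher with an unadjusted p under 0.05. The macrophage and monocyte mean relative to control ranged from -0.35 to 2.02 in Res 499 and from -0.21 to 0.42 in control. None of these 12 markers fell under the level below which genes were not tested. Replicate 4 had leukocyte content of 0.30, near the highest control at 0.28, and macrophage markers at 0.24, yet its Oas1b, Oas1g, Oas2 and Oasl2 lay 1.11, 1.54, 1.37 and 1.52 above the control mean. Replicate 5 had macrophage markers at 1.66 but lower values for the same genes, at 0.69, 0.89, 0.90 and 0.88. In replicate 7, with leukocyte content below every control, Oas1b stood at 0.71 relative to the control mean and Oasl2 at -0.48. The 8 T and NK cell markers ranged from -0.13 to 1.07 relative to control in Res 499 and from -0.15 to 0.29 in control, and the 4 fibroblast markers from -0.93 to 1.11 and from -0.51 to 0.55. None of the 8 T and NK, 5 dendritic, 4 fibroblast, 3 endothelial or 1 B cell markers tested passed in Res 499 against control. Of these lists the dendritic one had 1 marker higher with an unadjusted limma p under 0.05, and each other list had 0. The 5 dendritic cell markers lay from -0.06 to 0.60 in Res 499 and from -0.03 to 0.04 in control. Res 499 replicates 1 to 5 lay above every control for them, replicates 4 and 5 narrowly, at 0.06 and 0.05. In the same tumours leukocyte content lay above every control too, as did Oas2, Oas3 and Oasl2. The 3 endothelial markers lay from -0.52 to 0.73 in Res 499 and from -0.15 to 0.27 in control. Leukocyte content was fitted as a covariate, as given next. The part of the other lists in the Oas levels was not tested.

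**Figure D3:**
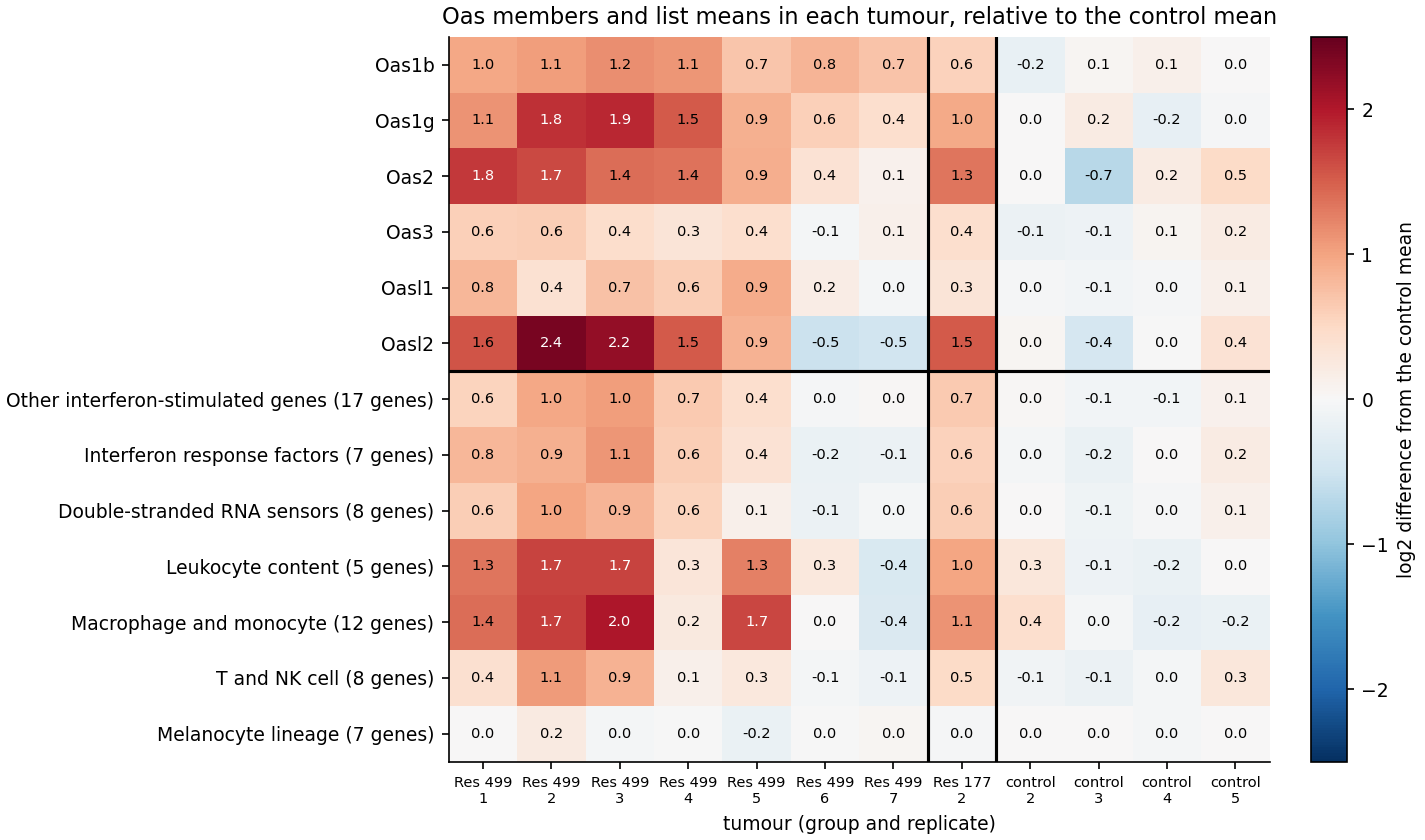
Log2 difference from the mean of the 4 controls in each tumour (columns) for the 6 members and for the means of 7 marker or gene lists (rows), from blue below to red above control. Res 499 replicate 4 has high Oas levels with leukocyte content at 0.30, and replicates 6 and 7 have raised Oas1b with list means near or below control.

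With leukocyte content as a covariate in the same fit, members moved by differing amounts. Oas1b stayed at 0.86 (SE 0.12, limma adjusted p = 0.0233), and was then 1 of 6 members that rose, against 0.12% of all genes. Oas1g moved to 0.74 (SE 0.24, adjusted p = 0.241), Oas2 to 0.53 (SE 0.29, adjusted p = 0.513), Oasl1 to 0.25 (SE 0.16, adjusted p = 0.575) and Oas3 to 0.15 (SE 0.12, adjusted p = 0.697) by limma. Oasl2 moved to 0.02 (SE 0.38, limma adjusted p = 0.988). The median of the 6 was 0.39 with the covariate and 1.004 without it. Per log2 unit of leukocyte content, Oasl2 had a slope of 1.19 (SE 0.30) in this model and Oas1b one of 0.09 (SE 0.08). A covariate measured in the same tumours does not tell tumour cells from infiltrating cells as the source of a transcript.

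**Figure D4:**
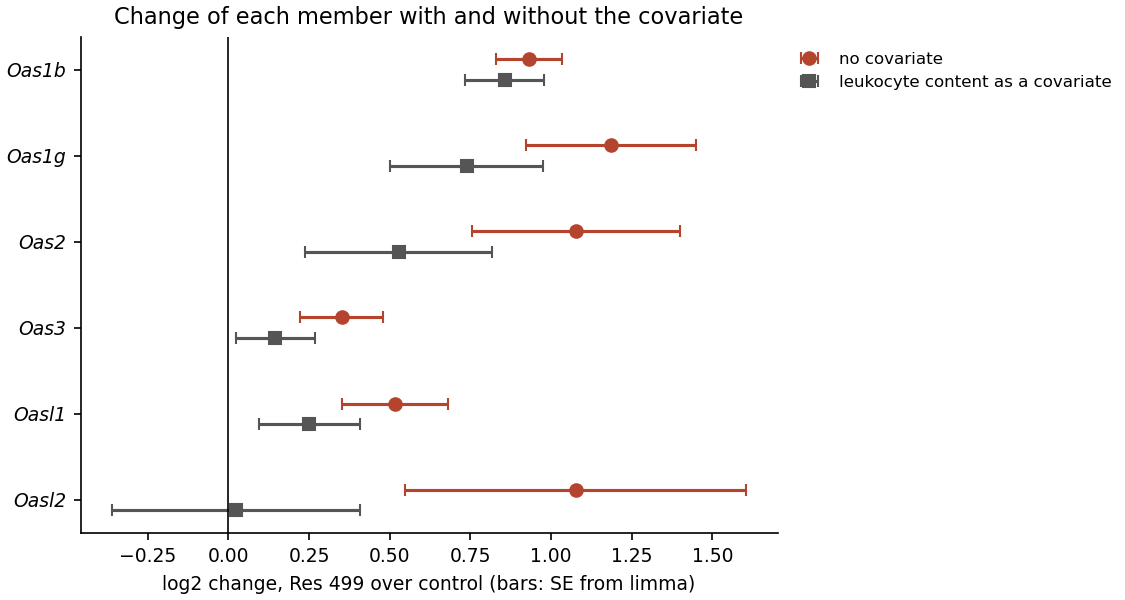
Log2 change of Res 499 over control with its SE for each member (vertical axis), without a covariate (red circles) and with leukocyte content as a covariate (grey squares). Oas1b keeps 0.86 of 0.93, whereas Oasl2 goes to 0.02 with the covariate, against 1.08 without it.

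The other Oas1 copies of the cluster were near the floor of the arrays. Oas1d, Oas1e, Oas1f and Oas1h had means from 3.97 to 4.62 in Res 499 and from 3.88 to 4.76 in control, under the level of 4.94 below which genes were not tested. Oas1c, at 5.36 ± 0.16 (SD, n = 7) in Res 499 and 5.08 ± 0.09 (SD, n = 4) in control, differed by 0.28 (SE 0.09, limma adjusted p = 0.208) and lay above every control in 6 of 7 tumours. The promoter window of Oas1c held 2 matches to the ISRE-type motif, on the opposite strand. The windows of Oas1f and Oas1h held none, and no window was at hand for Oas1d or Oas1e.

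Genes of the 2-5A pathway that act after the synthetases lay close to their control levels where measured; RNase L itself was not analysed here. Of the 3 tested, 0 passed the limma test in either direction, and none reached an unadjusted p under 0.05. Over all 16635 genes tested, 59 passed in either direction, so 0 of 3 says nothing particular about this list. Pde12, a phosphodiesterase that degrades 2-5A, differed by -0.07 (SE 0.08), and Abce1, first described as an inhibitor of RNase L, by 0.01 (SE 0.07). The list median was -0.02, and Akap7, which holds a 2-5A phosphodiesterase-like domain, differed by -0.02 (SE 0.09). Cgas, the DNA sensor that shares the nucleotidyltransferase fold, differed by 0.09 (SE 0.11, limma adjusted p = 0.801).

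Factors known to induce the family mostly had positive differences that did not pass the test. For these lists, the shares over all genes tested were 51.7% positive, 6.68% higher with an unadjusted p under 0.05 and 0.144% that rose. Of 7 interferon response factors 6 had positive differences (median 0.61), 0 passed by limma in either direction, and the unadjusted p was under 0.05 for 4. Irf7, the factor that amplifies type I interferon, stood at 7.58 ± 0.56 (SD, n = 7) in Res 499 and 6.75 ± 0.15 (SD, n = 4) in control, a difference of 0.83 (SE 0.25, limma adjusted p = 0.182). The ISGF3 subunits Irf9 and Stat2 differed by 0.68 (SE 0.21) and 0.61 (SE 0.22), and Irf8, a factor of myeloid cells, by 0.77 (SE 0.45). Of the 7 receptor and kinase genes 0 passed by limma in either direction, with a median of 0.11, and the unadjusted p was under 0.05 for 0. Ifnar1, a chain of the type I receptor, differed by 0.15 (SE 0.09) and Tyk2, its kinase, by 0.13 (SE 0.09), with control replicate 2 of Tyk2 far below the other controls. Of 5 interferon genes tested 0 passed by limma, the median was 0.00 and none reached an unadjusted p under 0.05.

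Among sensors and other interferon-stimulated genes, read against the same shares over all genes, 1 gene rose. Of 8 genes that sense or edit double-stranded RNA 5 had positive differences (median 0.36) and 0 passed by limma, 4 with an unadjusted p under 0.05. Zbp1, a sensor of Z-form nucleic acid, differed by 1.21 (SE 0.55), Dhx58, which encodes LGP2, by 0.89 (SE 0.21), and Ifih1, which encodes MDA5, by 0.68 (SE 0.30). Ddx58, which encodes RIG-I, differed by 0.53 (SE 0.21). Of 14 other interferon-stimulated genes tested 13 had positive differences (median 0.70), 1 rose, 0 fell and 7 had an unadjusted p under 0.05. The one that rose was Ifi27, at 10.67 ± 0.22 (SD, n = 7) in Res 499 and 9.86 ± 0.30 (SD, n = 4) in control, a change of 0.81 (SE 0.14, limma adjusted p = 0.0427). With leukocyte content as a covariate Ifi27 was at 0.76 (SE 0.18, limma adjusted p = 0.109) and 9 of the 14 stayed positive, where 53.6% of all genes were positive in that fit. Ifi27, Rtp4, Xaf1 and Herc6, 4 of the 14, had every Res 499 tumour above every control, as Oas1b and Oas1g did. Of all genes tested, 1.23% did so. Rtp4, Xaf1, Bst2 and Herc6 differed by 1.40 (SE 0.27), 1.06 (SE 0.25), 0.85 (SE 0.28) and 0.77 (SE 0.18), without passing. Usp18, which restrains the type I receptor, differed by 1.25 (SE 0.38, limma adjusted p = 0.177), and 0 of 3 genes that restrain the signal passed.

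Genes most like a member were found by the mean absolute difference, over the 12 tumours, between their deviations from the control mean and those of the member. Nearest to Oas1b were Mcoln3, an endolysosomal cation channel gene, at 0.17, Tmcc3 at 0.20, Plau, the urokinase gene, at 0.20, Dhx58 at 0.21 and H2ac15 at 0.21; as a histone gene with almost identical copies, H2ac15 has an uncertain value. Nearest to Oas1g were Xaf1 at 0.25, Dhx58 at 0.28 and Herc6 at 0.29, and nearest to Oas2 were Xaf1 at 0.21, Bst2, which encodes tetherin, at 0.24 and the chemokine gene Ccl3 at 0.27. Nearest to Oasl2 were Sp110 at 0.12, Zbp1 at 0.21 and Irgm2, an interferon-inducible GTPase gene, at 0.26. Oas3 was nearest to B4galnt1, Kcnk6 and Batf2 (0.08 each), and Oasl1 to Tnf at 0.10, the necroptosis kinase gene Ripk3 at 0.12 and Meox1 at 0.13. No member was among the nearest genes of another. Within the family the closest pair was Oas3 and Oasl1 at 0.20, and the farthest was Oas3 and Oasl2 at 0.75. For members of small change, such as Oas3, a short distance partly follows from the small deviations themselves.

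Genes next to the family on chromosome 5 were set beside it, by their order in the RefSeq gene table. Around the cluster from Oas2 to Oas1d, 0 of 20 neighbours (10 on each side) passed by limma in Res 499 against control. Of these, 2 were higher with an unadjusted limma p under 0.05, and the median difference was 0.03. The largest was that of Tmem116, at 0.51 (SE 0.16, limma adjusted p = 0.194). Around Oasl2 and Oasl1, 0 of 20 passed by limma, and 1 was higher with an unadjusted limma p under 0.05. The median there was 0.04, and differences ran from -0.14 to 0.33. Over all 16635 genes tested, 59 passed in either direction and 6.68% were higher with an unadjusted limma p under 0.05. So few genes passed that 0 of 20 says nothing particular about the neighbours.

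Res 177 tumours had higher levels than controls for most members in both tables, with 1 tumour in each and Oas3 the exception in the 2-array table. In the 12-array table the Res 177 tumour lay above every control for 6 of 6 members, and it did so for 22.5% of all genes tested. It had 6.81 for Oas1b, 7.73 for Oas1g, 7.61 for Oas2, 6.85 for Oas3, 6.67 for Oasl1 and 8.53 for Oasl2. The differences from the control mean were 0.58 (SE 0.18) for Oas1b, 0.96 (SE 0.47) for Oas1g, 1.34 (SE 0.58) for Oas2, 0.43 (SE 0.23) for Oas3, 0.32 (SE 0.29) for Oasl1 and 1.53 (SE 0.94) for Oasl2. With its spread taken from the other groups, 0 of 6 members passed by limma (adjusted p = 0.830 for Oas1b and 0.9998 for the rest), while 0.21% of all genes rose. An unadjusted p under 0.05 with a higher level was found for 2 of 6 members and for 2.56% of all genes. Leukocyte content in this tumour was 0.99 above the control mean. With it as a covariate the differences were 0.50 (SE 0.20) for Oas1b, 0.46 (SE 0.38) for Oas1g, 0.73 (SE 0.46) for Oas2, 0.20 (SE 0.20) for Oas3, 0.03 (SE 0.25) for Oasl1 and 0.36 (SE 0.61) for Oasl2. Each but that of Oas1b was smaller by over 1.5 times than without the covariate.

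In the 2-array table, Res 177 replicate 1 and control replicate 1 allow no test. Oasl2 stood at 9.54 in the Res 177 tumour and 7.80 in the control, a difference of 1.74. Oas2 was at 7.49 in the Res 177 tumour and 6.81 in the control, and Oasl1 at 8.17 in the Res 177 tumour and 7.61 in the control. Oas1a, the second active Oas1 synthetase and measured only here, was at 8.24 in the Res 177 tumour and 7.72 in the control, a difference of 0.52. Oas1b was at 6.56 in the Res 177 tumour and 6.08 in the control, a difference of 0.48. Oas3 was at 6.01 in the Res 177 tumour and 6.05 in the control, a difference of -0.04. The Res 177 tumour was thus higher for 5 of 6 members, where it was higher for 58.5% of 14953 genes, and at least 0.5 higher for 4 of 6, against 5.03% of genes. In the same pair all 11 macrophage and monocyte markers present were higher in Res 177, by a median of 1.34, and all 7 keratinocyte and hair follicle markers by a median of 1.48. The part of these cell types in the Oas differences was not tested.

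**Figure D5:**
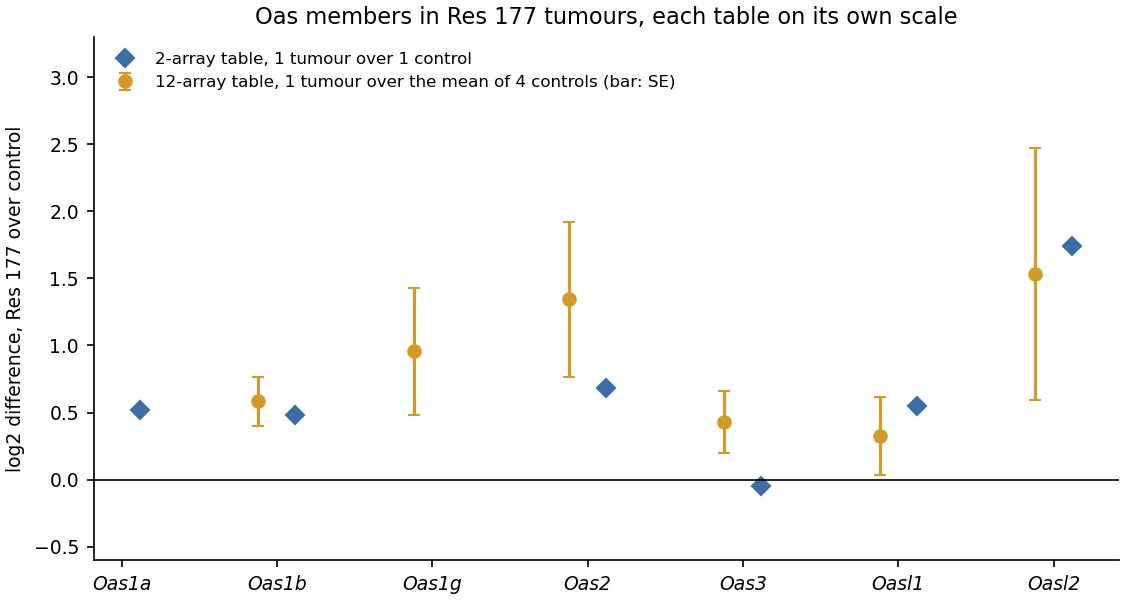
Log2 difference of a Res 177 tumour over control (vertical axis) for the 7 genes (horizontal axis), as 1 tumour over the mean of 4 controls in the 12-array table with the SE from limma (circles) and as 1 tumour over 1 control in the 2-array table (diamonds). Oasl2 is highest in both, at 1.53 and 1.74, and Oas3 differs by 0.43 in the first and -0.04 in the second.

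Res 499 tumours and the Res 177 tumour of the 12-array table were not told apart by a test of these genes. With 1 Res 177 tumour, that test cannot show that the sublines were alike. For Oas1b all 7 Res 499 tumours lay above the Res 177 tumour, and for the other members 3 to 5 of 7 did. The share of all genes with such an order was not computed. No member passed by limma (0 of 6, where 0.234% of all genes passed), and 0 of 6 had an unadjusted p under 0.05, where 2.93% of all genes did. Oas1b differed by 0.35 between Res 499 and the Res 177 tumour, with a 95% interval from -0.03 to 0.73. Oas2 differed by -0.27 with an interval from -1.46 to 0.93, and Oas3 by -0.08 with one from -0.55 to 0.40. Oasl2 differed by -0.46 with an SE of 0.90, and Oas1g and Oasl1 by 0.23 and 0.19 with SEs of 0.45 and 0.28. The interval of Oas3 holds the whole of its difference of 0.35 between Res 499 and control.

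With Res 499 and Res 177 taken as 1 resistant group, Oas1b rose by 0.89 (SE 0.11, limma adjusted p = 0.00519) in 8 resistant against 4 sensitive tumours. It was again 1 of 6 members that rose, where 0.289% of all genes did, and all 6 had a higher level with an unadjusted p under 0.05, as 7.11% of all genes did. With leukocyte content as a covariate that count was 2 of 6 (Oas1b at 0.82, SE 0.14, limma adjusted p = 0.0362, and Oas1g at 0.71, SE 0.23, limma adjusted p = 0.237), where 6.32% of all genes did. Oas2 was then at 0.55, Oasl1 at 0.23, Oas3 at 0.15 and Oasl2 at 0.06, against 1.11, 0.49, 0.36 and 1.13 without it. Oas1g differed by 1.16 (SE 0.25, limma adjusted p = 0.0574), and passed without Res 499 replicate 7, at 1.26 (limma adjusted p = 0.0446). The pooled group holds 7 Res 499 tumours and 1 Res 177 tumour, so its spread is mostly that of Res 499. The resistant label goes with the subline and covers 2 sublines here. The p-values therefore describe these tumours and not resistance across sublines. With both sublines weighted equally the change of Oas1b was 0.76.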

How the data were processed

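Total RNA of 14 tumours was measured on 2 Affymetrix designs. The deposited values are log2 expression per probe set, which the authors made with RMA from the oligo software, per the processing notes of the submitters (background correction, quantile normalization, summary of probes). The log2 scale was inferred from the range of values. Tool versions, build and annotation were not given in the sources used here. The tables were normalized separately and never pooled. Arrays carry no read depth; the number of tumours limits precision.

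Gene symbols came from GEO's platform annotation: 23521 of 41345 and 21789 of 35556 had 1 symbol, 1814 and 1621 several (not used) and 16010 and 12146 none. For a gene with several, the one of highest mean was kept. The 5545 genes in the lowest 25% by mean were left out and 16635 tested with lmFit and eBayes (limma 3.58.1, R 4.3.3), with Benjamini-Hochberg adjustment over these and a threshold of 0.05. Res 499, Res 177 and control shared 1 fit, in which the single Res 177 tumour is assumed to vary like the others; resistant against sensitive had its own. No label says that each tumour had its own mouse, so p-values cover only the spread between tumours, which may be partly technical.

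The members and lists were chosen with earlier results of these data known. All members are named, and of each list up to 4 genes, called ones first and then by size of change. Genes nearest to a member, Herc6 among them, were named by a rule of distance, and the genes under other observations after their values were seen. The list of other interferon-stimulated genes was also read with the covariate for all its genes. Of the genes on these lists, some had no row and were not analysed here. Alternatives covered the filter, the probe set, the normalization, the prior, array weights, the leukocyte covariate, the samples in the fit and each array left out in turn.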

Additional observations from a re-analysis of the deposited data

Results flagged for a closer look

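Among 34 genes named or eligible for naming, checked within Res 499 and within control (68 groups), 1 group held a tumour far from the rest by Dixon's test: Tyk2, the kinase of the type I interferon receptor, stood at 8.38 in control replicate 2, with the next control at 8.79. Chance sets apart about 1 group in 20. No Oas member had such a tumour in either group.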

How the results depend on the processing

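Oas1b was past the threshold in Res 499 against control under all 22 alternatives, with changes from 0.86 to 0.97 and limma adjusted p-values from 0.00249 to 0.0233. The 22 were not all distinct, as leaving out the Res 177 tumour and fitting only Res 499 and control tumours are the same fit. The count of members past the threshold, 1 as reported, was 2 with array weights, when Oas1g passed at 1.22 (adjusted p = 0.0300), and 1 in each fit that left out a tumour. For resistant against sensitive it was 2 under a filter on the lowest 50% of genes, with quantile normalization repeated and with array weights, and 1 to 2 when tumours were left out in turn. For Res 177 against control and Res 499 against Res 177 it stayed at 0 in 20 alternatives each. The pairs past the threshold, 0 as reported, ran from 0 to 3 when tumours were left out, with 3 without Res 499 replicate 7. Under both alternatives for the 2-array table, 5 of 6 members were higher, but the alternative for the probe set could change nothing. All 504 recomputed changes of single members in the 12-array table kept their direction, though many could not have turned. With 1 probe set per member, another filter, probe set rule or prior returns the same change. Leaving out a Res 499 tumour likewise leaves Res 177 against control as it was. Where values could move, sizes did: Oasl2 in Res 499 ran from 0.02 to 1.35 and Oas2 from 0.53 to 1.24, lowest with the leukocyte covariate. Over all genes, the 59 past the threshold in Res 499 became 6 to 356, the 102 of the pooled fit 9 to 330, the 35 of Res 177 2 to 101, and the 39 of Res 499 against Res 177 2 to 113. No paired analysis was possible because the labels give no replicate numbers.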

Other observations

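The interferon-stimulated GTPase genes Mx1 and Mx2 lay under the tested level on the 12-array table while the Oas members lay above it. Mx2 was at 4.92 ± 0.39 (SD, n = 7) in Res 499 and 4.69 ± 0.03 (SD, n = 4) in control, and Mx1 at 4.91 ± 0.31 (SD, n = 7) and 4.72 ± 0.06 (SD, n = 4). Ifnb1, which encodes interferon beta, was at 4.30 ± 0.11 (SD, n = 7) in Res 499 and 4.40 ± 0.14 (SD, n = 4) in control. Ifit2 and Ifit3, antiviral genes that are often induced with the family, differed by 0.01 (SE 0.14) and -0.09 (SE 0.15) in Res 499 against control, beside 0.69 (SE 0.37) for Ifit1; none of the 3 passed by limma (adjusted p = 0.983, 0.847 and 0.461).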
